A study of Mus musculus with 2 samples.

Results

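Arterial endothelial cells of the newborn mouse heart were examined at postnatal day 1 (P1) and postnatal day 7 (P7), in 285 of the 13502 cells kept from both ages. Live cells were sorted from the pooled hearts of 3 littermates per age and profiled by droplet-based single cell RNA-seq, which counts captured transcripts by unique molecular identifiers (UMIs) read from their 3′ ends. Each age was 1 library, the mice were intact, the strain and genotype are not given in the sample labels, and Collagenase II digestion lasted 20 minutes for P1 and 45 minutes for P7. The libraries held 7836 barcodes with 63585504 UMIs at P1 and 9077 barcodes with 98346195 UMIs at P7. With 1 library of pooled animals per age there was no test between ages: the intervals given are exact 95% intervals that cover counting error only, and a difference is called past 2-fold rather than significant.

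The cells were chosen by the genes detected in them, so those genes describe the choice and are not findings. A barcode with 200 to 8000 genes and at most 20% mitochondrial UMIs was taken as endothelial with at least 3 summed UMIs of Pecam1, Cdh5 and Egfl7 and none of Ptprc or Pdgfra. It was taken as arterial when at least 2 of 4 arterial genes were detected (Gja5, Sema3g, Hey1 and Stmn2) and when that number exceeded the number detected in each of 4 other sets of 4 genes. These sets were Aplnr, Apln, C1qtnf9 and Pcdh17 for Aplnr/Apln cells, Car4, Timp4, Aqp7 and Rbp7 for Car4/Timp4 cells, Npr3, Cytl1, Tmem108 and Plvap for Npr3/Cytl1 cells, and Prox1, Mmrn1, Reln and Ccl21a for lymphatic cells. The same rule, applied to the other sets, gave the classes used for comparison.

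This yielded 72 arterial cells at P1 and 213 at P7. They made up 4.18% (3.29 to 5.24) of the 1722 endothelial cells at P1 and 6.27% (5.48 to 7.14) of the 3395 at P7. The order of these shares turned when cells with at least 3 genes of another cell type's marker list were left out, to 2.15% at P1 and 1.80% at P7. That step left out a large part of the P1 arterial cells and most of the P7 ones. Values given without such cells rest on this smaller group. The arterial cells held 784651 UMIs at P1, with a median of 9568.5 per cell, and 1770358 at P7, with a median of 7621. The libraries had 18 barcodes in common, and 0 of these were arterial cells.

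Arteries carry blood away from the heart under high pressure, and their endothelium acquires an identity of its own, distinct from that of capillaries and veins. Notch signalling, driven by Delta-like and Jagged ligands and read out through Hey genes, specifies this identity together with SoxF transcription factors. Arterial endothelial cells are coupled by gap junctions, take part in setting vascular tone, and lie on an elastic layer to which they contribute.

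Several properties separated the libraries besides age. Xist, the RNA that silences an X chromosome in females, had 734 UMIs in 71 of 72 arterial cells at P1 and 0 UMIs at P7. Summed over Ddx3y, Eif2s3y, Kdm5d and Uty, which lie on the Y chromosome, there were 0 UMIs at P1 and 418 at P7, the latter in 165 of 213 cells. Age, sex and digestion time cannot be told apart in these data.

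Some P1 cells also held UMIs of genes known from lung, of which fibroblasts of both libraries held mainly Scn7a. Of the 72 cells, 24 (33.3%, 22.7 to 45.4) held a UMI of Foxf1, Scn7a, Hoxa5, Tbx4 or Sftpc, genes known from lung stroma, endothelium or epithelium, against 17 of 213 (7.98%) at P7. Fibroblasts, taken as kept barcodes with UMIs of Pdgfra and Col1a1 and none of Pecam1, Cdh5, Egfl7 or Ptprc, held such a UMI in 32.1% of cells at P1 and 45.3% at P7. Most of that share was Scn7a, in 20.9% and 44.5% of fibroblasts, whereas Foxf1 was in 2.27% and 0.976% and Hoxa5 in 1.88% and 0.345%. Foxf1, Scn7a and Hoxa5 were found in 22.2%, 23.6% and 23.6% of arterial cells at P1, and in 0.469%, 0.939% and 6.10% at P7. At least 2 of Foxf1, Scn7a and Hoxa5 were found together in 16 cells at P1 (22.2%, 13.3 to 33.6) and in 0 of 213 at P7, where 3 cells would be 1.41% and the exact upper limit was 1.72%. In the other P1 classes the same criterion was met by 31 of 303 Aplnr/Apln cells, 5 of 628 Car4/Timp4 cells and 6 of 267 Npr3/Cytl1 cells. The 24 cells carried 235 of the 236 UMIs of Lyve1, 180 of the 195 of Plvap and 235 of the 272 of Calcrl in P1 arterial cells. In UMIs per 1000000 UMIs (CPM), summed over cells, Gja4 stood at 842 in these 24 cells and at 1623 in the other 48, Sox17 at 495 and 928, and Hey1 at 466 and 278. Whether these cells lay in the heart was not tested. A cell with a UMI of any of the 5 genes is called a cell with a lung-list UMI, and values without such cells are given beside the results that they move. Without them 48 cells were left at P1 (2.79% of endothelial cells) and 196 at P7 (5.77%). The 17 P7 cells held Hoxa5 in 13 cells, 1 UMI of Foxf1, 2 of Scn7a and 0 of Lyve1, with Gja4 at 1759 CPM. They also carried much of the RNA of other cell types at P7. Fibroblast markers had 3512 UMIs in all P7 arterial cells and 1674 without the 17, and smooth muscle markers 2117 and 1383. Values without cells with a lung-list UMI therefore also leave out this RNA at P7.

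The labels name the heart but no vessel, so which arteries the cells came from is not known. The arterial name was checked on Gja4 and Sox17, arterial markers that were not used in the choice. Gja4 (chromosome 4, 127311421 to 127314039, build GRCm38) encodes a gap junction protein of arteries. It was detected in 69 of 72 cells (95.8%) at P1 and in 199 of 213 (93.4%) at P7, against 4.44% and 3.33% of fibroblasts, which had median depths of 14367 and 16448 UMIs. With each cell thinned to 2000 UMIs, which left out 3 and 12 shallower cells, Gja4 was found in 76.8% and 91.0% of arterial cells. Sox17 (chromosome 1, 4490931 to 4497354) encodes a SoxF transcription factor. It was found in 93.1% and 92.0% of arterial cells, 66.7% and 77.6% after thinning, and in 1.97% and 0.976% of fibroblasts. These fibroblasts held no UMI of the genes that marked endothelium, so barcodes that caught endothelial RNA were partly left out of them. With no condition on Pecam1, Cdh5 and Egfl7, 1507 fibroblasts at P1 and 2711 at P7, with median depths of 15120 and 16821 UMIs, held Gja4 in 6.64% and 4.91% of barcodes and Sox17 in 3.65% and 3.95%. Gja4 and Sox17 were detected in a larger share of arterial cells than of either group of fibroblasts.

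The order of Gja4 levels among endothelial classes was the same at both ages. At P1 it stood at 1422 CPM in arterial cells, 208 in Npr3/Cytl1 cells, 59.8 in Car4/Timp4 cells and 28.5 in Aplnr/Apln cells. At P7 the values were 1876, 207, 101 and 17.1 CPM. Below the arterial cells Sox17 had another order, with Car4/Timp4 cells (185 and 165 CPM at P1 and P7) above Aplnr/Apln cells (102 and 68.6) and Npr3/Cytl1 cells (14.9 and 6.72), against 817 and 994 in arterial cells. The plot of levels by class shows arterial cells above the other endothelial classes for every gene drawn, in both libraries.

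**Figure D1:**
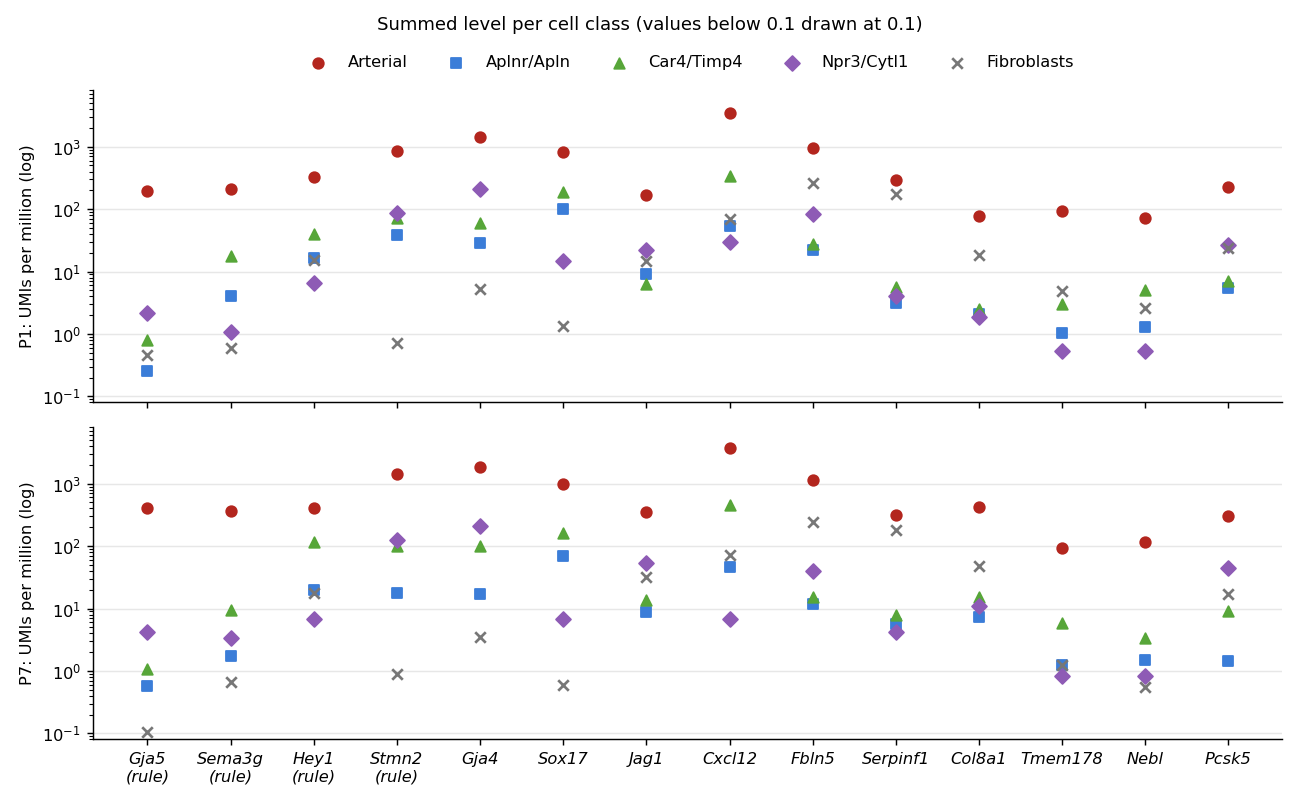
Summed UMIs per 1000000 UMIs (CPM, log axis) of 14 genes in arterial cells, in 3 other endothelial classes and in fibroblasts, for P1 and P7 in separate panels. Arterial cells stand above the other endothelial classes for each gene, and the first 4 genes were used to choose them, whereas Gja4, at 1422 and 1876 CPM, was not.

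Promoters are shown for genes that carry arterial identity: the gap junction gene Gja4, the rule gene Sema3g, the Notch ligand Dll4 and the Notch target Hey2. RefSeq promoter sequences of build GRCm38.p6 were found for 6 of 9 genes looked for. Each is printed 5′ to 3′ on the gene's strand, up to the first base that GENCODE assigns to the gene. The promoter of Gja4 lies at chr4:127314040-127314289 on the minus strand, Sema3g at chr14:31217623-31217859 on the plus strand, Dll4 at chr2:119325534-119325783 on the plus strand and Hey2 at chr10:30842802-30843033 on the minus strand. Capitals mark matches on either strand to TGGGAA, the core bound by the Notch effector RBPJ, or to ACAAT, a core bound by SOX factors.
Gja4: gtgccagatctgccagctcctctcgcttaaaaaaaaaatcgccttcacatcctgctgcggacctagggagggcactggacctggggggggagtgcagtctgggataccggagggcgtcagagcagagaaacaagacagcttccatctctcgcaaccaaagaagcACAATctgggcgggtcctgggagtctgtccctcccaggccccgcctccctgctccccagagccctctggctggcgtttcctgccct
Sema3g: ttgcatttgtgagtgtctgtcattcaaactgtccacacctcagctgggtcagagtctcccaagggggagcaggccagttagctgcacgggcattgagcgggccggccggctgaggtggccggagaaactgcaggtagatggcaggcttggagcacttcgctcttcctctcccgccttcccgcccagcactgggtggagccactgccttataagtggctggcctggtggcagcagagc
Dll4: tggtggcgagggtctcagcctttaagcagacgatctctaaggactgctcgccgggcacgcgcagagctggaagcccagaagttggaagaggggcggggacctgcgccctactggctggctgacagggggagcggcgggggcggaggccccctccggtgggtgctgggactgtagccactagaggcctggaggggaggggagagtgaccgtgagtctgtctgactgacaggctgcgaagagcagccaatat
Hey2: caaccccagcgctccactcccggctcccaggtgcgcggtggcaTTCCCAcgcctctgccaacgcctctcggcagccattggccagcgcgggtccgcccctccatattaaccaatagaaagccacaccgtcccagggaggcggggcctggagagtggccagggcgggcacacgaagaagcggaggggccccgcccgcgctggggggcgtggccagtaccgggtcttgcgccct
In the 250 bases before the start site, Gja4 had 1 ACAAT match, beginning 86 bases before it, and Hey2 had 1 TGGGAA match on the opposite strand, 207 bases before it. Jag1, not printed here, had 1 ACAAT match, and Gja5, Sema3g and Dll4 had none of either. Of 32851 RefSeq promoters, 21.6% hold TGGGAA and 27.7% hold ACAAT in this window, so a match describes the sequence and marks no site.

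The genes of the rule varied between cells. At P1, 17 cells had 2 of the 4 genes, 37 had 3 and 18 had 4, and at P7 the numbers were 30, 89 and 94. Gja5 (chromosome 3, 96904693 to 97077416), a second arterial gap junction gene, had a lowest value of 0, a median of 0.719 and a highest value of 14.0 UMIs per 10000 UMIs of the cell at P1, and 0, 2.56 and 25.3 at P7. It was detected in 51.4% and 69.5% of cells, 24.6% and 43.8% after thinning, and in 0.494% and 0.172% of fibroblasts. Sema3g (chromosome 14, 31217860 to 31230352), a secreted semaphorin, was found in 88.9% and 86.4% of arterial cells, 31.9% and 51.2% after thinning, with medians of 1.90 and 3.29 per 10000 and highest values of 10.1 and 39.5. Hey1 (chromosome 3, 8663359 to 8667256), a repressor downstream of Notch, was found in 84.7% and 85.0%, 37.7% and 51.2% after thinning, with medians of 2.84 and 3.49, but also in 15.3% and 19.5% of fibroblasts. Stmn2 (chromosome 3, 8509360 to 8561606), a microtubule-binding stathmin, was found in 76.4% and 89.2%, 55.1% and 78.6% after thinning, with medians of 6.47 and 12.7. The medians of all 4 were higher at P7, and the ranges of the cells overlapped. These genes chose the cells, and 1 UMI counted as detection at any depth. The arterial cells were deeper at P1 (a median of 9568.5 UMIs, against 7621 at P7), so the order of the medians is not read as a change with age.

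**Figure D2:**
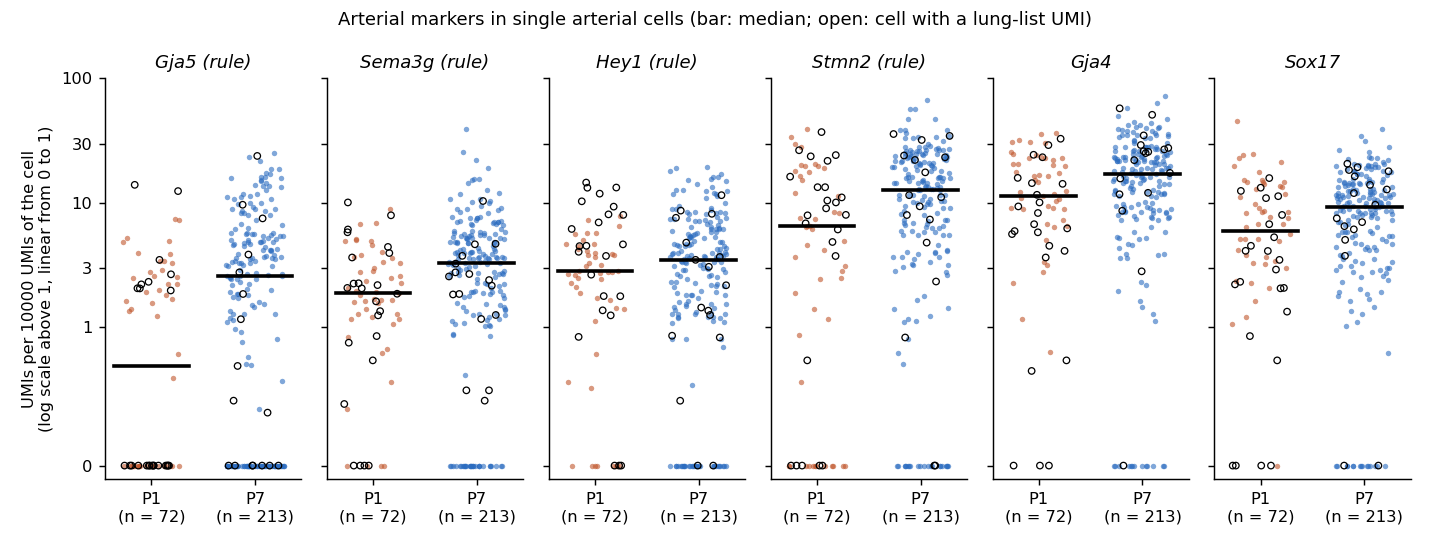
UMIs per 10000 UMIs of each arterial cell (axis linear from 0 to 1 and logarithmic above) for the 4 genes of the rule and for Gja4 and Sox17, with 72 cells at P1 and 213 at P7. Bars are medians over cells and open circles are cells with a lung-list UMI. The P7 median lies above the P1 median in each panel, and cells of both ages overlap. For the 4 genes of the rule this order is not read as a change with age.

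Cells just inside and just outside the rule were set side by side, as a description of the choice. Inside by 1 gene stood 42 cells at P1 and 87 at P7, and 49 cells at P1 and 78 at P7 missed the class by a tie with another set. Gja4 was at 969 and 1416 CPM in the cells just inside and at 605 and 992 in the tied cells, and Sox17 at 779 and 920.3 against 541 and 822. Gja5, which the rule used, was at 81.0 and 169 just inside and 8.72 and 93.8 in the tied cells. Stmn2 was closer, at 715 and 926 against 680.0 and 893, with counting intervals that overlapped at both ages. Outside with 1 rule gene stood 7 cells at P1 and 9 at P7, which had no gene of another set and median depths of 1534 and 720 UMIs. In them Gja4 rested on 2 and 6 UMIs, and Sema3g, at 183 and 259 CPM on 3 and 2 UMIs, was not below the cells just inside (176 and 233).

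Outside the rule, 10 genes had the largest ratios of arterial over other endothelial cells in both libraries, which describes the chosen cells. Secreted and matrix proteins were among them. Serpinf1, a secreted anti-angiogenic serpin, stood at 291 and 317 CPM in arterial cells at P1 and P7 and at 6.70 and 8.07 in other endothelial cells, log2 ratios of 5.44 (5.12 to 5.77) and 5.29 (5.07 to 5.53). Fbln5, which helps to assemble elastic fibres, was at 948 and 1136 CPM in arterial cells, with log2 ratios of 4.33 (4.19 to 4.47) and 5.32 (5.20 to 5.44). Cxcl12, a chemokine, was the most abundant of the 10, at 3424 and 3699 CPM against 246 and 249 in other endothelial cells. In fibroblasts Serpinf1 was at 175 and 183 CPM, Fbln5 at 265 and 241 and Cxcl12 at 68.8 and 72.4.

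The other genes of this group included Jag1, a Notch ligand, with log2 ratios over other endothelial cells of 3.79 and 4.28, and Col8a1, a short-chain collagen, with 4.71 and 4.85. The proprotein convertase Pcsk5 had ratios of 3.93 and 5.09, Tmem178 of 5.17 and 4.90, Nebl, a nebulin relative, of 4.03 and 4.85, and AU015791 of 4.34 and 4.08. The tenth gene, Cbr2, owed 108 of its 112 UMIs at P1 to 1 cell, which had lung-list UMIs. The 16 cells with at least 2 of Foxf1, Scn7a and Hoxa5 held 0 UMIs of Serpinf1 and 0 of Col8a1, whereas the 48 P1 cells without a lung-list UMI held 224 and 59.

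Between the libraries, 8899 genes had at least 20 summed UMIs in arterial cells. Of these, 277 (3.11%) were past 2-fold higher at P1 and 496 (5.57%) past 2-fold higher at P7, and the median log2 ratio, always P1 over P7, was -0.07. Without cells with a lung-list UMI, 172 of 8326 genes (2.07%) were past 2-fold higher at P1 and 535 (6.43%) at P7, and the median was -0.11. Counts of genes past 2-fold in the gene lists below are to be read beside these shares. Ratios in what follows are log2 ratios of CPM with 0.5 counts added.

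The genes furthest towards P1 were mostly carried by the cells with lung-list UMIs. Lyve1, a hyaluronan receptor, had 236 UMIs in 17 cells at P1 and 0 at P7, at least 177-fold higher against a floor of 3 UMIs over the P7 cells, and 1 UMI in the P1 cells without a lung-list UMI. Foxf1 had 111 and 1 UMIs and Scn7a 152 and 2, and both were used to mark those cells. Calcrl, a receptor for adrenomedullin and CGRP, had a ratio of 2.83 (2.48 to 3.20) over all cells and 0.37 (-0.25 to 0.94) without them. Ahr, the aryl hydrocarbon receptor, stood at 2.83 and 0.75, Slco2a1, a prostaglandin transporter, at 2.33 and 0.64, Meis2, a homeobox factor, at 2.31 and 0.85, and the ceramidase gene Acer2 at 2.53 and 1.10. Hpgd, which inactivates prostaglandins, stood at 5.12 over all cells and 3.05 without them, and Scn3b, a sodium channel subunit, at 3.103 and 1.86.

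Peg3 and Gdpd3 were as far towards P1 without those cells. Peg3, an imprinted zinc finger gene, was at 297 and 27.1 CPM at P1 and P7, detected in 43 of 72 and 35 of 213 cells, a ratio of 3.44 (3.00 to 3.93) over all cells and 3.58 (3.11 to 4.11) without them. Gdpd3, a glycerophosphodiesterase family gene, was at 81.6 and 5.08 CPM, with ratios of 3.94 and 4.04. The direction was the same in other endothelial classes, where Peg3 had ratios of 2.02 in Aplnr/Apln and 2.68 in Car4/Timp4 cells, and Gdpd3 of 2.42 and 4.32.

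**Figure D3:**
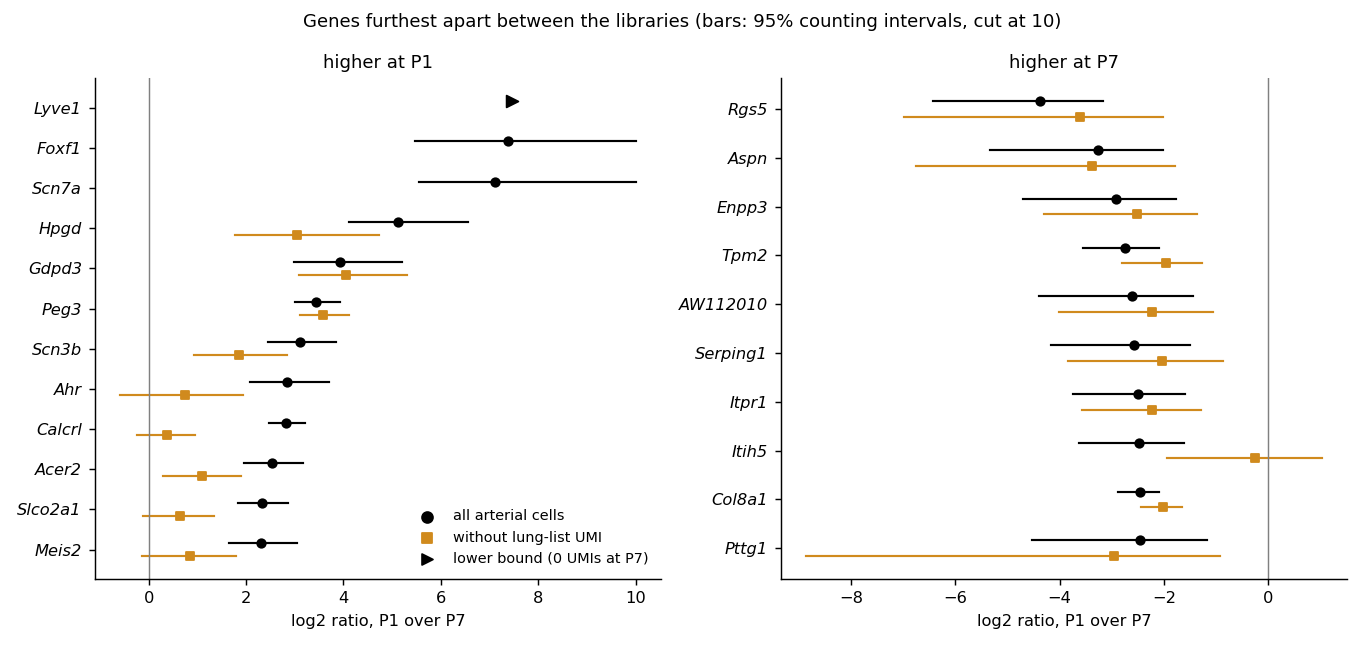
Log2 ratio of P1 over P7 for the genes furthest towards P1 and towards P7, over all arterial cells (black) and without cells with a lung-list UMI (orange), with 95% counting intervals cut at 10. Peg3 and Gdpd3 kept their ratios without those cells and Calcrl went from 2.83 to 0.37. Lyve1 is a lower bound, values on fewer than 20 UMIs are not drawn, and neither are Birc5 and Cenpf, with 0 UMIs at P1.

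Towards P7 the leading genes were of several kinds. Col8a1, listed above among the genes of arterial cells, was at 76.5 and 424 CPM, a ratio of -2.46 (-2.88 to -2.09). It was found in 17 of 72 arterial cells (23.6%) at P1 and 155 of 213 (72.8%) at P7, and in 9.38% and 23.1% of fibroblasts. Without cells with a lung-list UMI the ratio was -2.02, and in Aplnr/Apln and Car4/Timp4 cells it was -1.73 and -2.58, from levels of 2.06 and 7.20 CPM in the former and 2.54 and 15.6 in the latter. Itpr1, a calcium channel of the endoplasmic reticulum, was at 11.5 and 68.3 CPM (-2.50, -3.74 to -1.60), with ratios of -0.29 and -0.39 in those classes. Enpp3, an ectonucleotidase, was at 6.37 and 52.5 (-2.91, -4.70 to -1.77), the complement inhibitor gene Serping1 at 7.65 and 49.1 (-2.58, -4.17 to -1.50) and AW112010 at 6.37 and 42.4 (-2.61, -4.40 to -1.45). The difference between arterial and other ratios was not tested.

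Other genes towards P7 rested on few cells. Rgs5, a pericyte gene, had 4 UMIs at P1 and 211 at P7, 113 of them in 1 cell, and its ratio was -4.38 over all cells and -1.75 without cells with at least 5 UMIs of 6 mural genes. Tpm2 had 95 of 280 P7 UMIs in 1 cell, Itih5 104 of 131 (a ratio of -2.47, and -0.26 without lung-list UMIs), and Aspn 27 of 97. Birc5 and Cenpf, genes of dividing cells, had 0 UMIs at P1 and 57 each at P7 in 13 cells, at least 8.42-fold higher against a floor of 3 UMIs over the P1 cells.

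Notch pathway and arterial specification genes had ratios on both sides of 0, and most were not past 2-fold. All 25 genes of the list were measured, with a median of -0.28, against -0.07 over all genes. Of them 0 were past 2-fold higher at P1 and 3 at P7, against 3.11% and 5.57% of all genes. The 3 genes were the ligands Dll1, at 21.7 and 70.6 CPM (-1.67, -2.53 to -0.97), and Jag1, at 168 and 351 (-1.06, -1.34 to -0.79), and the endothelial receptor Notch4, at 67.5 and 142 (-1.06, -1.53 to -0.64). Jag1 was detected in 51.4% and 77.0% of arterial cells, 14.5% and 43.8% after thinning, and in 14.0% and 29.1% of fibroblasts. The ligand Dll4 was at 167 and 216 CPM (-0.37, -0.67 to -0.08) and was found in 70.8% and 65.7% of arterial cells, 30.4% and 33.3% after thinning, and in 0.494% and 1.03% of fibroblasts. The receptor Notch1 was at 194 and 234 (-0.27, -0.55 to 0.00).

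Of the Notch targets in this list, Hes1 was at 147 and 123 CPM (0.25, -0.09 to 0.58), and Hey2 had 11 and 28 UMIs (-0.14, -1.33 to 0.88). The SoxF factors lay close together, with ratios of -0.28 (-0.42 to -0.15) for Sox17 and -0.20 (-0.34 to -0.05) for Sox18. Sox17 stood at 0.15 with each cell thinned to 2000 UMIs before the rule. It stood at 0.007 without cells with at least 3 genes of another cell type's list. Sox18 kept its sign in 18 of 18 alternatives. Efnb2, the arterial ephrin, was at 363 and 343 CPM (0.08, -0.12 to 0.29), and Nrp1, a VEGF co-receptor, at 567 and 572 (-0.01, -0.18 to 0.15). The genes used in the choice had ratios of -1.03 for Gja5, -0.77 for Sema3g, -0.34 for Hey1 and -0.72 for Stmn2. Without cells with a lung-list UMI the list median was -0.19, against -0.11 over all genes, and Dll1, Jag1 and Notch4 stood at -1.72, -0.99 and -1.11. Of the 25 genes 0 were then past 2-fold at P1 and 3 at P7, against 2.07% and 6.43% of all genes. The 3 were Dll1, Notch4 and the Notch effector Rbpj, at -1.24 (-2.36 to -0.37) on 11 and 71 UMIs. The list median was -0.25 in Aplnr/Apln and -0.34 in Car4/Timp4 cells, where Jag1 stood at 0.10 and -1.12, Dll1 at 0.37 and 0.06, and Notch4 at -0.91 and -0.71.

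Elastic fibre and wall matrix genes were mixed. Of 19 measured genes of 21, 2 were past 2-fold higher at P1 (Mfap2 and Mfap5) and 3 at P7 (Ltbp4, Loxl1 and Mfap4), with a median of -0.32 over all cells and 0.05 without lung-list UMIs. Without those cells 3 of 19 measured were past 2-fold at P1 and 0 at P7, and Ltbp4, Loxl1 and Mfap4 stood at -0.95, -0.63 and 0.38. Ltbp4, which guides elastic fibre assembly, was at 562.03 and 1258 CPM (-1.16, -1.31 to -1.01), in 58 of 72 and 208 of 213 cells, and had ratios of -1.17 and -1.54 in Aplnr/Apln and Car4/Timp4 cells. Fbln2 was at 956 and 1752 CPM (-0.87, -0.99 to -0.76) and Fbln5 at 948 and 1136 (-0.26, -0.38 to -0.14). The microfibril gene Mfap2 was at 219 and 106 CPM (1.05, 0.75 to 1.36), and Loxl1, an elastin cross-linking enzyme, had 8 and 63 UMIs (-1.73, -3.08 to -0.74). Fibroblast markers, given below, summed to 923 and 1984 CPM in arterial cells, and to 1096 and 1091 without lung-list UMIs. At least 2 of these markers were found in 54.2% and 81.7% of arterial cells. Their part in the matrix values was not tested.

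Elastin UMIs were concentrated in 1 cell at P1 and less so at P7. The share of arterial cells with an Eln UMI was 61.1% (48.9 to 72.4) at P1 and 67.6% (60.9 to 73.8) at P7, with overlapping intervals. Eln had 2808 UMIs in 44 of 72 cells at P1, 1292 of them in 1 cell, and 3858 UMIs in 144 of 213 cells at P7, 247 in 1 cell. Its summed ratio was 0.72 (0.64 to 0.79), whereas its median over cells was 1.11 and 2.90 per 10000 at P1 and P7, so the sum and the median pointed in opposite directions. The summed ratio was -0.87 without cells with at least 3 genes of another cell type's list. Eln was found in 905 of 1013 fibroblasts at P1 and 1654 of 1741 at P7. Mfap5 had 71 of 134 P1 UMIs in 1 cell and Mfap4 164 of 270 P7 UMIs, and the ratio of Mfap4 was -1.11 over all cells and -4.10 without cells with at least 5 mural UMIs.

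Basement membrane genes were nearly level, with 0 of 16 past 2-fold at P1, 1 at P7 and a median of -0.15, which was 0.07 without lung-list UMIs. Col4a1, a chain of the collagen network beneath endothelium, was at 1257 and 1157 CPM (0.12, 0.01 to 0.23) and Sparc, a collagen-binding matricellular protein, at 6799 and 7055 (-0.05, -0.10 to -0.01). The gene past 2-fold was Lama5, a laminin chain of vascular basement membranes, at 34.4 and 90.9 (-1.38, -2.05 to -0.81).

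Junction genes differed little. Of 13 measured, 1 was past 2-fold at P1 (Ocln, on 14 and 9 UMIs) and 1 at P7 (Jam3, on 11 and 63 UMIs, -1.29, -2.42 to -0.41), with a median of -0.26. Without lung-list UMIs Ocln had 6 and 8 UMIs, too few for a ratio. Gja4 had a ratio of -0.40 (-0.50 to -0.30) over all cells and -0.22 (-0.33 to -0.12) without lung-list UMIs. With each cell thinned to 2000 UMIs before the rule it stood at 0.06. Cldn5, the main claudin of endothelial tight junctions, was at 1464 and 1690.0 CPM (-0.21, -0.31 to -0.11).

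Of 16 measured vasoactive genes, 2 were past 2-fold higher at P1 and 0 at P7, with a median of -0.10. Without lung-list UMIs 2 of 16 measured were past 2-fold at P1 and 1 at P7, with a median of -0.34, and Ptgis, which makes prostacyclin, stood at 1.65 on 31 and 26 UMIs. Over all cells the genes past 2-fold were Calcrl, described above, and Ddah1, which degrades an inhibitor of nitric oxide synthase, at 129 and 52.5 CPM (1.29, 0.87 to 1.72), with 1.34 without lung-list UMIs. Ace, the angiotensin-converting enzyme, was at 243 and 194 (0.33, 0.06 to 0.58) over all cells, but its ratio was -0.46 (-0.83 to -0.12) without lung-list UMIs. Ece1, the endothelin-converting enzyme, was at 289 and 312 (-0.11, -0.34 to 0.12).

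None of 10 measured flow-responsive genes was past 2-fold, with a median of -0.13. Klf2, a transcription factor induced by flow, was at 1292 and 2288 CPM (-0.82, -0.92 to -0.72), in 65 of 72 and 206 of 213 cells. Its relative Klf4 was at 553 and 657 (-0.25, -0.41 to -0.09) and Cav1, a caveolar protein, at 1819 and 1795 (0.02, -0.07 to 0.11). Klf4 stood at 0.06 with each cell thinned to 2000 UMIs before the rule. It stood at 0.30 without cells with at least 3 genes of another cell type's list.

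In the VEGF and angiopoietin list, 1 of 13 measured genes was past 2-fold higher at P1 (Esm1, on 15 and 9 UMIs) and 0 at P7, with a median of -0.27. Without lung-list UMIs 0 of 12 measured were past 2-fold at P1 and 1 at P7, since Esm1 had 8 and 9 UMIs, too few for a ratio, and Flt4, a receptor for Vegfc, stood at -1.45 instead of -0.63, on 5 and 39 UMIs. Vegfc, a growth factor best known for lymphatic vessels, was at 348 and 578 CPM (-0.73, -0.93 to -0.54), Flt1, a decoy VEGF receptor, at 542 and 774 (-0.51, -0.68 to -0.36), and Kdr, the main signalling receptor, at 444 and 372 (0.26, 0.06 to 0.44).

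The TGF-beta and BMP list had 4 of 15 measured genes past 2-fold at P1 and 0 at P7, against 3.11% and 5.57% of all genes. Its median was 0.13 over all cells and -0.13 without lung-list UMIs. Bmp2 (32 and 19 UMIs, 1.91), Bmp6 (26 and 12 UMIs, 2.26) and Tgfbr3 (16 and 17 UMIs, 1.09, and 0.63 without lung-list UMIs) rested on few molecules, and Bmp4 (1.66) had 41 of 59 P1 UMIs in 1 cell. The BMP targets Id1 and Id3 were abundant, at 1071 and 1445 and at 1301 and 1619 CPM, with ratios of -0.43 and -0.31. Among chemokine and adhesion genes 2 of 9 were past 2-fold at P1 and 0 at P7, with a median of 0.31 over all cells and -0.03 without lung-list UMIs, where 2 of 8 measured were past 2-fold at P1 and 1 at P7. Over all cells they were Cxcl1, with 40 of 43 P1 UMIs in 1 cell, and Cxcl16, with 11 and 11 UMIs. Cxcl12 was nearly level (-0.11, -0.18 to -0.05), and its receptors Cxcr4 and Ackr3 had ratios of -0.81 and -0.77.

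**Figure D4:**
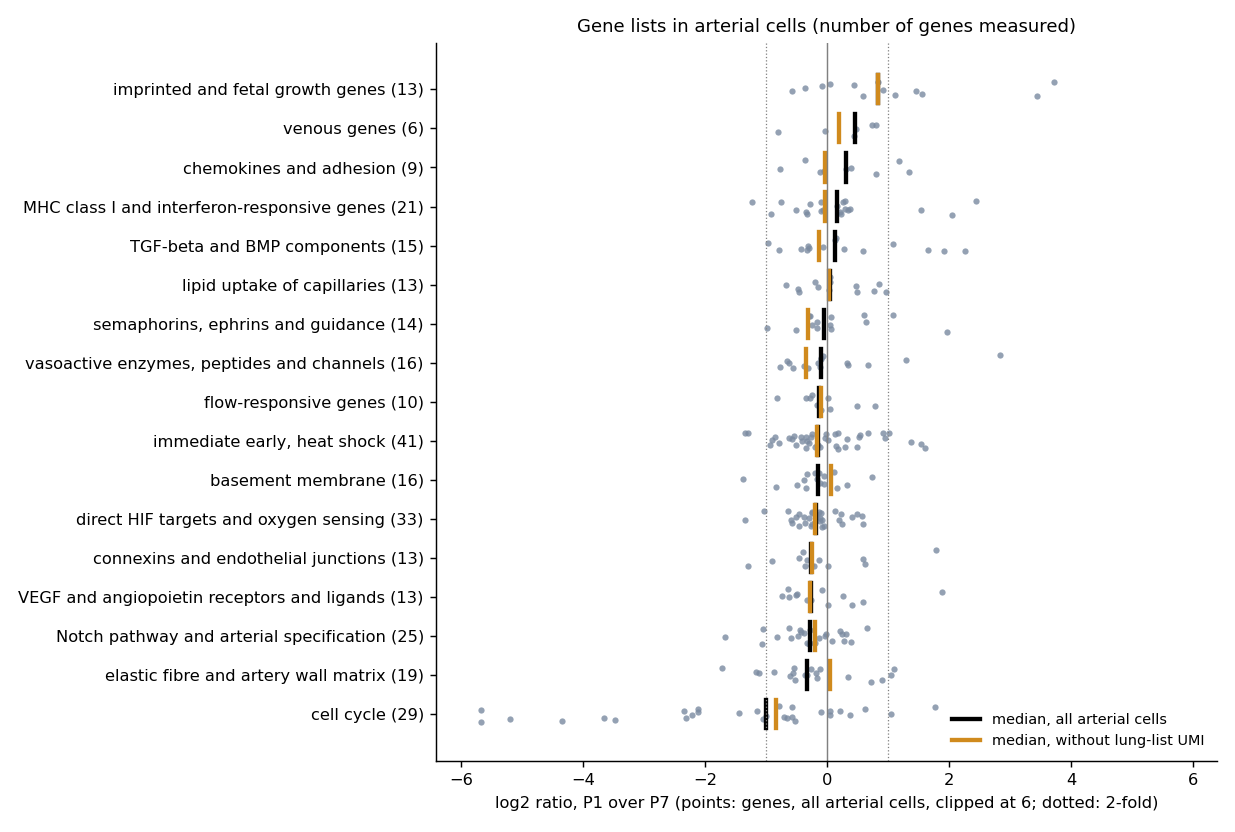
Log2 ratio of P1 over P7 of each measured gene (points) in 17 gene lists, in arterial cells, with the list median over all cells (black) and without cells with a lung-list UMI (orange), and dotted lines at 2-fold. Imprinted and fetal growth genes have the highest median (0.83) and cell cycle genes the lowest (-1.004).

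Imprinted and fetal growth genes were the list furthest towards P1. Of 13 measured genes of 20, 5 were past 2-fold higher at P1 and 0 at P7, against 3.11% and 5.57% of all genes. Without lung-list UMIs 6 were past 2-fold higher at P1. Without cells with at least 5 mural UMIs only Mest (1.51) and Peg3 (3.03) were. The median was 0.83 over all cells and 0.84 without lung-list UMIs, but 0.09 when cells with at least 3 genes of another cell type's list were left out. Besides Peg3, given above, Mest was at 399 and 136 CPM (1.56, 1.31 to 1.81) and the growth-control factor Plagl1 at 139 and 63.8 (1.12, 0.73 to 1.51). Hmga2, a chromatin protein of fetal tissue, had 20 and 3 UMIs (3.72, 2.16 to 6.30), and Meg3, an imprinted RNA, had 29 of 61 P1 UMIs in 1 cell. H19, the imprinted RNA beside Igf2, was at 850.1 and 450.2 CPM (0.92, 0.77 to 1.07), in 45 of 72 and 105 of 213 cells, but its ratio was -0.46 without cells with at least 3 genes of another cell type's list. Cdkn1c, a growth inhibitor, was level at 823 and 792 (0.06, -0.08 to 0.19), as was Grb10 at 127 and 134 (-0.07, -0.43 to 0.27). The list median was 1.02 in Aplnr/Apln, 0.53 in Car4/Timp4 and 0.77 in Npr3/Cytl1 cells.

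Cell cycle genes formed the list furthest towards P7. Of 29 measured genes of 40, 15 were past 2-fold higher at P7 and 2 at P1 (Cdkn1a and Gins2), against 5.57% and 3.11% of all genes. The list median was -1.004, the same with genes at 0 set to their bound. Without lung-list UMIs 1 of 23 measured was past 2-fold at P1 and 10 at P7, with a median of -0.84. A cell was called cycling with at least 4 of 19 mitotic genes detected. Of the 72 P1 cells 0 were cycling, where 3 cells would be 4.17% and the exact upper limit was 4.99%, and of the 213 P7 cells 9 were (4.23%, 1.95 to 7.87). In those 9 cells Mki67, a marker of dividing cells, had 38 UMIs, against 4 in the other 204. The 9 cells were chosen by genes of this list, so leaving them out takes away its counts by construction. Of the 29 genes 17 then reached the minimum of UMIs, with 2 past 2-fold at P1 and 1 at P7. Nothing is read from these counts or from their median. Gja5 was at 451 CPM and Gja4 at 766 in the 9 cells, against 396 and 1967 in the other P7 arterial cells, and 1 of the 9 held at least 5 mural UMIs.

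At a fixed depth of 2000 UMIs, 0 of 69 arterial cells were cycling at P1 (upper limit 5.21%) and 5 of 201 at P7 (2.49%, 0.813 to 5.71). The shares were 13.7% (10.0 to 18.2) and 10.2% (8.67 to 11.8) in Aplnr/Apln cells. They were 3.79% (1.83 to 6.86) and 1.11% (1 of 90 cells, 0.0281 to 6.04) in Npr3/Cytl1 cells, the P7 share being below that of arterial cells. They were 6.68% and 6.23% in Car4/Timp4 cells and 6.15% and 5.32% in fibroblasts. The counting intervals of arterial and Aplnr/Apln cells did not overlap at either age, whereas those of arterial cells overlapped with those of Car4/Timp4 and of Npr3/Cytl1 cells. The counting intervals of arterial cells at P1 and P7 overlapped, and a difference between ages was not tested. Free RNA also enters such calls, and its part was not tested.

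**Figure D5:**
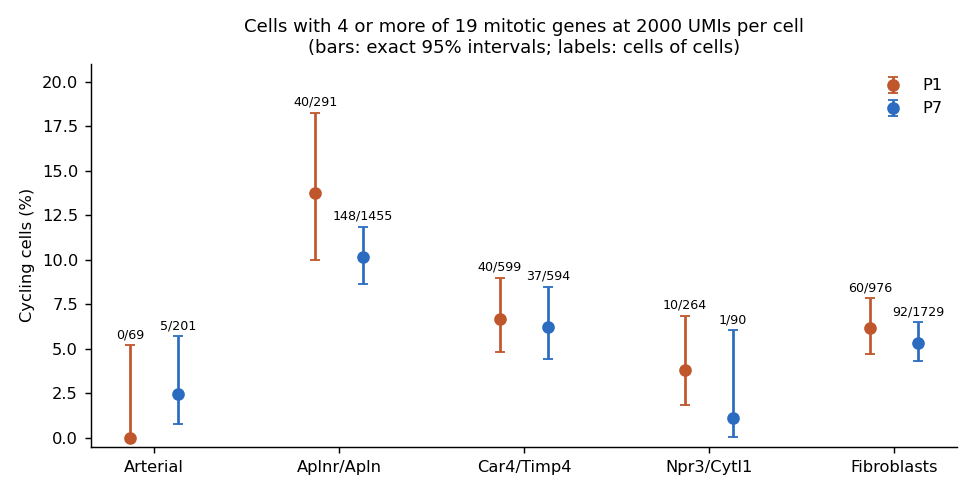
Percentage of cells with at least 4 of 19 mitotic genes after thinning each cell to 2000 UMIs, for arterial cells, 3 other endothelial classes and fibroblasts at P1 and P7, with exact 95% intervals and the cell numbers. Arterial cells lie at 0 of 69 and 5 of 201, below Aplnr/Apln cells at both ages.

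The study concerned signalling by hypoxia-inducible factor (HIF) in the heart over this first week, so HIF targets and oxygen sensors were examined in the arterial cells. Of 33 measured genes of 42, 0 were past 2-fold at P1 and 2 at P7, against 3.11% and 5.57% of all genes. The list median was -0.18 over all cells and -0.19 without lung-list UMIs. Among regulators, Hif1a was at 75.2 and 80.8 CPM (-0.10, -0.57 to 0.34), Epas1, which encodes another HIF alpha subunit, at 610.5 and 659 (-0.11, -0.27 to 0.05), and the oxygen-sensing hydroxylase gene Egln1 had 16 and 48 UMIs (-0.38, -1.33 to 0.43). Among targets, Vegfa was at 53.5 and 35.6 (0.59, -0.01 to 1.17), the kinase gene Pdk3 had 15 and 23 UMIs (0.57, -0.49 to 1.56), and the glycolytic genes Ldha, Aldoa and Gapdh had ratios of -0.24, -0.25 and -0.04. The genes past 2-fold at P7 were Bhlhe40, a transcriptional repressor (25.5 and 66.1 CPM, -1.35, -2.14 to -0.68), and Ankrd37 (30.6 and 63.3, -1.03, -1.75 to -0.40). Without lung-list UMIs 1 of 33 measured was past 2-fold at P1 and 2 at P7. Pdk3 then stood at 1.11 (-0.08 to 2.25) on 13 and 16 UMIs, and at 1.02 (-0.10 to 2.12) without cells with at least 5 mural UMIs, while Bhlhe40 stood at -2.15 on 8 and 99 UMIs and Ankrd37 at -1.51 without lung-list UMIs and -0.70 without mural UMIs.

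Genes induced by tissue digestion are given because digestion times differed. Of 41 measured, 4 were past 2-fold higher at P1 (Atf3, Maff, Ctgf and Fosb) and 2 at P7 (Dnajb4 and Gadd45g), with a median of -0.14. Without lung-list UMIs 3 of 40 measured were past 2-fold at P1 and 4 at P7, and Atf3 stood at 0.87, Fosb at 0.93, Dnajb4 at -0.87 and Gadd45g at -0.99. The immediate early genes Jun and Ier2 were at 503 and 713 and at 626 and 785 CPM, with ratios of -0.50 and -0.33, and Atf3 had 53 and 39 UMIs (1.61, 0.99 to 2.25). The heat shock gene Hspa8 was at 1726 and 1583 CPM (0.12). Their part in the other results was not tested.

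Of 21 measured MHC class I and interferon-responsive genes, 3 were past 2-fold at P1 and 1 at P7, with a median of 0.16 over all cells and -0.03 without lung-list UMIs, where 2 of 20 measured were past 2-fold at P1 and 2 at P7. Isg15, an interferon-induced ubiquitin-like protein, was at 101 and 24.3 CPM (2.04, 1.498 to 2.62), with 22 of its 79 P1 UMIs in 1 cell. Bst2, a membrane tether of viruses, was at 269 and 92.1 (1.55, 1.24 to 1.85), and the factor Irf7 had 20 and 8 UMIs (2.44). Isg15 and Bst2 stood at 1.46 and 1.37 in Aplnr/Apln cells and at 1.30 and 1.17 in Car4/Timp4 cells. The factor Irf1 was the gene past 2-fold at P7 (20.4 and 49.1 CPM, -1.23, -2.14 to -0.49).

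Lipid uptake genes of capillaries were present in arterial cells at a summed level of 11496 CPM at P1 and 10761 at P7, against 48218 and 29467 in Car4/Timp4 cells. None of 13 measured was past 2-fold, with a median of 0.05, and without lung-list UMIs Pparg, a nuclear receptor of lipid metabolism, was, at 1.22 on 23 and 26 UMIs. Fabp4, a fatty acid carrier, was at 8348 and 8121 (0.04, 0.00 to 0.08), Cd36, a fatty acid translocase, at 1000.4 and 709 (0.50, 0.37 to 0.63), and Gpihbp1, which anchors lipoprotein lipase, at 719 and 367 (0.97, 0.80 to 1.13).

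Venous and guidance genes were sparse. Of 6 measured venous genes of 10, 0 were past 2-fold, with a median of 0.46. Without lung-list UMIs 1 of 5 measured was past 2-fold at P1 and 0 at P7, with a median of 0.20, and Vcam1, an adhesion molecule, stood at 1.08 on 20 and 25 UMIs. The venous fate factor Nr2f2 had 14 and 19 UMIs. Vwf, von Willebrand factor, was at 138 and 99.4 CPM (0.47, 0.11 to 0.82). Among 14 measured guidance genes 2 were past 2-fold at P1 (Sema3c and Plxna4) and 0 at P7, with a median of -0.05 over all cells and -0.31 without lung-list UMIs, where 0 of 12 measured were past 2-fold at P1 and 0 at P7. Sema3c had 23 UMIs at P1, 23 of them in cells with lung-list UMIs, which left 0 and 5 UMIs at P1 and P7, too few for a ratio, and Plxna4 had 16 and 17 UMIs.

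Markers of other cell types were measured in the same cells. The 10 pan-endothelial markers summed to 4364 and 4614 CPM at P1 and P7. Smooth muscle markers summed to 395 and 1196, with Acta2 first (143 and 552, 412 of 978 P7 UMIs in 1 cell, -1.95 over all cells and -0.86 without mural UMIs) and 0 of 9 genes at 0, and pericyte markers to 84.1 and 244, with Vtn at 0 at P1. Without cells with a lung-list UMI the smooth muscle sums were 475 and 901 and the pericyte sums 72.1 and 176. In other endothelial cells the smooth muscle sums were 301 and 730.3 and the pericyte sums 172 and 364. At least 5 mural UMIs were held by 6 of 72 cells (8.33%) and 20 of 213 (9.39%).

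Fibroblast markers summed to 923 and 1984 CPM in arterial cells, with Col3a1 first (231 and 489.7), against 28729.9 and 44415 in fibroblasts. Without cells with a lung-list UMI the sums were 1096 and 1091, and the Col3a1 ratio was 0.36 instead of -1.08. Without cells with at least 5 mural UMIs the sums were 341 and 1705, and the Col3a1 ratio was -3.01. The whole lung list of 10 genes summed to 439.7 and 37.8 over all arterial cells and 22.3 and 24.1 without cells with a lung-list UMI, against 146 and 30.9 in other endothelial cells and 70.6 and 62.8 in fibroblasts, with Scn7a first at P1. Cardiomyocyte markers summed to 167 and 291 in arterial cells, with Myl7 and Ryr2 at 0 at P1, against 480.5 and 833 in other endothelial cells.

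Epicardial markers summed to 96.9 and 60.4 CPM, of which Wt1 made up 67.5 and 59.3, and Upk1b, Bnc1, Msln and Lrrn4 were at 0 in both libraries. Wt1 is also expressed by endothelium. Endocardial markers summed to 493 and 306, with Tmem100 first (269 and 188), lymphatic markers to 618 and 508, macrophage markers to 44.6 and 17.5, erythroid markers to 25.5 and 62.1, lymphocyte markers to 8.92 and 6.21 and glial markers to 8.92 and 7.91. Without cells with a lung-list UMI the endocardial sums were 216 and 310.1, the lymphatic sums 347 and 532 and the erythroid sums 12.01 and 65.1, so that the endocardial and lymphatic sums were higher at P7 instead of at P1. Most of these lymphatic sums was Mmrn2 alone, at 305 and 454 CPM. The lymphatic set of the rule (Prox1, Mmrn1, Reln and Ccl21a), which the choice of cells kept low, summed to 3.43 and 2.61 CPM there. The Tmem100 ratio was 0.52 (0.26 to 0.77) over all cells and -1.36 (-1.86 to -0.91) without them. The part of free RNA or doublets in these values was not tested, and no barcode was removed as a doublet.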

How the data were processed

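UMI counts per gene and cell were deposited by the authors, who made them with Cell Ranger 3.1.0 on the mm10 (GRCm38) reference, and no normalization had been applied. From these counts, cells were chosen by the rule above, UMIs were summed over the chosen cells of each library, and log2 ratios of CPM were taken with 0.5 counts added, for genes with at least 20 summed UMIs. Levels were not divided by transcript length, since 3′ UMIs are counted per molecule. Shares have exact Clopper-Pearson 95% intervals, CPM exact Poisson intervals, and ratios exact conditional binomial intervals. Barcodes were thinned to 2000 UMIs with a fixed seed. The wider group of fibroblasts was added after the data were seen. The members and gene lists were chosen with earlier results of these data known.

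The naming rule took the genes that chose the cells and the markers, the 12 largest ratios each way (50 or more UMIs and 10 or more arterial cells where higher), the 10 largest ratios over other endothelial cells, the 5 most abundant genes and up to 4 largest ratios of each list, the most abundant gene of each marker list, and the hypoxia genes that the study names, and the text prints a part of these genes. Mitochondrial, ribosomal, predicted, haemoglobin, Xist and Y-linked genes were left out of the largest ratios. Dll4, Notch1, Hes1, Hey2, Rbpj, Mfap2, Plagl1, Cdkn1a, Gins2, Mki67, Fosb and Gadd45g fell outside this rule and were added after their values were seen. Alternatives were other rules for the cells, other scalings, added counts and minimum counts. The code, in Python 3.11.15 with numpy 2.4.6, scipy 1.17.1, pandas 2.3.3 and matplotlib 3.10.9, was tested on simulated data. Coordinates are from GENCODE M21 on GRCm38.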

Additional observations from a re-analysis of the deposited data

Results flagged for a closer look

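Bmp4, Ctgf and Cxcl1 had log2 ratios of P1 over P7 of opposite sign in arterial and in Car4/Timp4 cells, with counting intervals on opposite sides of 0, and the difference between the classes was not tested. Bmp4, a bone morphogenetic protein, stood at 1.66 (1.07 to 2.27) in arterial cells and at -1.13 (-1.49 to -0.77) in Car4/Timp4 cells, with 41 of its 59 P1 UMIs in 1 arterial cell. Ctgf, a matricellular protein, stood at 1.37 (0.21 to 2.57) and -1.16 (-1.65 to -0.69), on 15 UMIs in 10 arterial cells at P1 and 13 UMIs in 8 at P7. Cxcl1, a chemokine, stood at 1.35 (0.69 to 2.02) and -1.08 (-1.89 to -0.32), with 40 of its 43 P1 UMIs in 1 arterial cell. In arterial cells Bmp4 and Cxcl1 each kept their sign in 15 of 16 alternatives with enough UMIs, and Ctgf in 14 of 14. Bmp4 stood at -0.37 without Stmn2 in the rule. Cxcl1 stood at -1.93, on 2 and 20 UMIs, without cells with at least 5 mural UMIs.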

How the results depend on the processing

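Over 18 alternatives, 15 set at the start and 3 added after the data were seen (leaving out cells with at least 2 of Foxf1, Scn7a and Hoxa5, with at least 5 mural UMIs, or in cycle), 6 of 17 list medians kept their sign in every one. Of the 65 genes of the naming rule past 2-fold, including genes not printed here, 20 reached the minimum of UMIs in every alternative, and 18 of these kept their sign. The other 45 fell under the minimum in at least 1 alternative, among them Foxf1 and Scn7a, which have 0 UMIs by construction once cells with a lung-list UMI are left out, and no ratio was taken there. The shares of 4.18% (P1) and 6.27% (P7) became 3.19% and 5.39% when at least 3 rule genes were required, 2.50% and 4.09% without Stmn2 in the rule, 2.15% and 1.80% without cells with at least 3 genes of another cell type's list, and at P1 2.88% after thinning to 2000 UMIs, 2.79% without cells with a lung-list UMI and 3.25% without those with at least 2 of Foxf1, Scn7a and Hoxa5. The genes past 2-fold, 277 higher at P1 and 496 at P7, became 180 and 316 after thinning, 104 and 196 with at least 50 summed UMIs, and 2183 and 1573 with no minimum. Higher at P1 were 172 without cells with a lung-list UMI, 175 without those with at least 2 of the 3 genes, and 424 with the mean of per-cell CPM, and higher at P7 were 277 without cells with genes of another list and 137 with 5 counts added. Among the genes past 2-fold, log2 ratios of the opposite sign were found without Stmn2 in the rule for Bmp4 (-0.37), Cbr2 (-2.61) and Mfap5 (-1.77), after thinning for Mfap5 (-0.19), and without lung-list UMIs for Cbr2 (-2.12), Col3a1 (0.36) and Mfap4 (0.38). They were also found without cells with 2 of the 3 genes for Cbr2 (-2.15) and Hoxa5 (-0.0031) and without mural UMIs for Cxcl1 (-1.93). Of the 78 other genes of the rule with a counting interval on 1 side of 0, 29 had the opposite sign in at least 1 alternative. Among them were Eln (0.72, and -1.16 after thinning), H19, Tmem100, Gja4, Sox17 and Klf4. Thinning, higher minimums and left-out cells lower the number of UMIs tested, and other causes were not tested. The median over all genes, -0.07, lay between -0.11 and 0.05. No paired analysis was possible because each age was 1 library. At 72 and 213 cells, genes under 20 summed UMIs could not be compared, and pooled animals give no spread between hearts.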
